A study of Mus musculus with 6 samples.

Results

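The core and accessory subunits of Polycomb repressive complex 2 (PRC2) examined here are encoded by 10 genes, whose transcripts were measured in mouse embryonic stem cells in which Pcl2 had been lowered. A probe set is the group of short oligonucleotides that reads a transcript on the array, and those whose platform annotation names a single gene were taken for Ezh2, Ezh1, Eed, Suz12, Rbbp4, Rbbp7, Jarid2, Aebp2, Epop and Lcor. This gave 32 probe sets for 10 genes, of 45101 probe sets and 18193 singly named genes on the array. The Polycomb-like paralogues, Mtf2 among them, are not members. RNA came from undifferentiated R1 cells, a mouse embryonic stem cell line grown with leukaemia inhibitory factor (LIF). The knockdown cells were stably transfected with a short hairpin RNA (shRNA) against Pcl2, the product of Mtf2, and gave 3 arrays. The controls were stably transfected with a mismatched hairpin sequence and also gave 3 arrays. The labels speak of biological replicates and of 1 shRNA clone, so that the hairpin and the clone cannot be told apart, and the p-values measure the spread between these samples.

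PRC2 places methyl groups on lysine K27 of histone H3 and keeps many developmental genes silent in embryonic stem cells. Its catalytic subunit is EZH2 or the related EZH1, which works only in a core with EED and SUZ12, while the histone chaperones RBBP4 and RBBP7 complete that core. Accessory proteins divide the complex into alternative forms: one carries a Polycomb-like protein such as Pcl2 with EPOP or PALI1 (a product of the Lcor locus), and the other carries JARID2 and AEBP2.

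The core genes Eed, Suz12 and Ezh2 and the accessory gene Jarid2 were higher in the Pcl2 shRNA cells, and none of the 10 genes passed the test as lower. By the brightest probe set of each gene, 4 of 10 rose and 6 did not pass, where 4.46% of all 13095 genes tested passed as higher and 8.16% as lower. The median log2 fold change of the 10 genes was 0.42, beside 0.02 over all genes. Of the 32 probe sets, 28 lay above the signal filter and were tested. Across probe sets, 6 of 28 rose and 0 fell, where 3.61% of all 23186 probe sets tested passed as higher and 6.83% as lower. The 6 were 3 of Suz12, 2 of Jarid2 and 1 of Eed, so a gene with several probe sets counts more than once. At an unadjusted limma p below 0.05, 4 of the 10 genes were higher and 0 were lower, where 11.3% of all genes were higher and 14.8% lower. The log2 fold changes are of signal + 7, Pcl2 shRNA minus mismatch control, a positive value meaning higher in the Pcl2 shRNA cells. Adjusted p-values are limma's, over all genes for the brightest probe set of a gene and over all probe sets for the others, and passing means an adjusted p below 0.05.

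The targeted gene was read by several probe sets. Its brightest probe set gave signals of 1048, 1167 and 869.6 in the Pcl2 shRNA cells, against 1951, 1513 and 1704 in the mismatch control cells, so the groups did not overlap. On the log2 scale the change in Mtf2 was log2 -0.74 (SE 0.17, adjusted p = 0.0157), a fall whose call was lost without Pcl2 shRNA replicate 3 (adjusted p = 0.058) or mismatch control replicate 1 (adjusted p = 0.0594). Over all probe sets, 1418514_at, 1418515_at and 1449115_at of Mtf2 also passed as lower (log2 -0.68, -0.75 and -0.73, adjusted p = 0.0402, 0.015 and 0.0259). The dimmer 1445151_at ran the other way and did not pass (log2 0.25, adjusted p = 0.573), and 1459811_at lay below the filter. The Mtf2 paralogues Phf1 and Phf19 did not pass, at log2 0.022 (SE 0.19, adjusted p = 0.96) and log2 0.32 (SE 0.18, adjusted p = 0.316).

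Among the stem cell markers Pou5f1, Nanog, Sox2, Zfp42, Utf1, Dppa4, Dppa5a, Tdgf1, Sall4, Lin28a, Fgf4 and Esrrb, all 12 lay above the filter, 6 rose (Dppa4, Esrrb, Fgf4, Sox2, Tdgf1 and Zfp42) and 0 fell. Their summed signal was 39649 to 50937 in the Pcl2 shRNA arrays and 26081 to 33862 in the mismatch control arrays. Of 12 markers of fibroblasts, the usual feeder cells, 7 lay above the filter and 1, Twist2, fell (15.0 ± 9.97 in Pcl2 shRNA cells and 64.1 ± 17.6 in mismatch control cells), while Dcn, Fap, Lum, Pdgfra and Postn lay below the filter. The summed signal of those 7 was 303 to 710.04 in the Pcl2 shRNA arrays and 430.2 to 1121 in the mismatch control arrays. Twist2 lay at or below background, a signal of 20.3, on 2 of the 3 Pcl2 shRNA arrays. Col1a1, Col1a2, Col3a1, Fbln2 and Thy1 were highest in replicate 1 of both groups, and Pdgfrb and Twist2 were not. Fbln2 read 162, 45.7 and 44.0 in the Pcl2 shRNA cells, against 173, 36.7 and 62.7 in the mismatch control cells. Of 10 markers of differentiated cells 7 lay above the filter and 1, Cdx2, fell, while Afp and Sox17 lay below it and T was not analysed here. The summed signal of those 7 was 401 to 589 in the Pcl2 shRNA arrays and 526 to 895 in the mismatch control arrays. Cdx2 read 18.4, 5.07 and 2.13 in the Pcl2 shRNA cells, all below background, against 145, 29.2 and 97.1 in the mismatch control cells. It thus lay above the filter only through the mismatch control arrays. Over all genes tested, 4.46% passed as higher and 8.16% as lower, so 1 of 7 does not set the fibroblast or the differentiated cell list apart. In bulk RNA, fewer cells of a type and less RNA per cell cannot be told apart. The part of these markers in the PRC2 results was not tested.

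**Figure D1:**
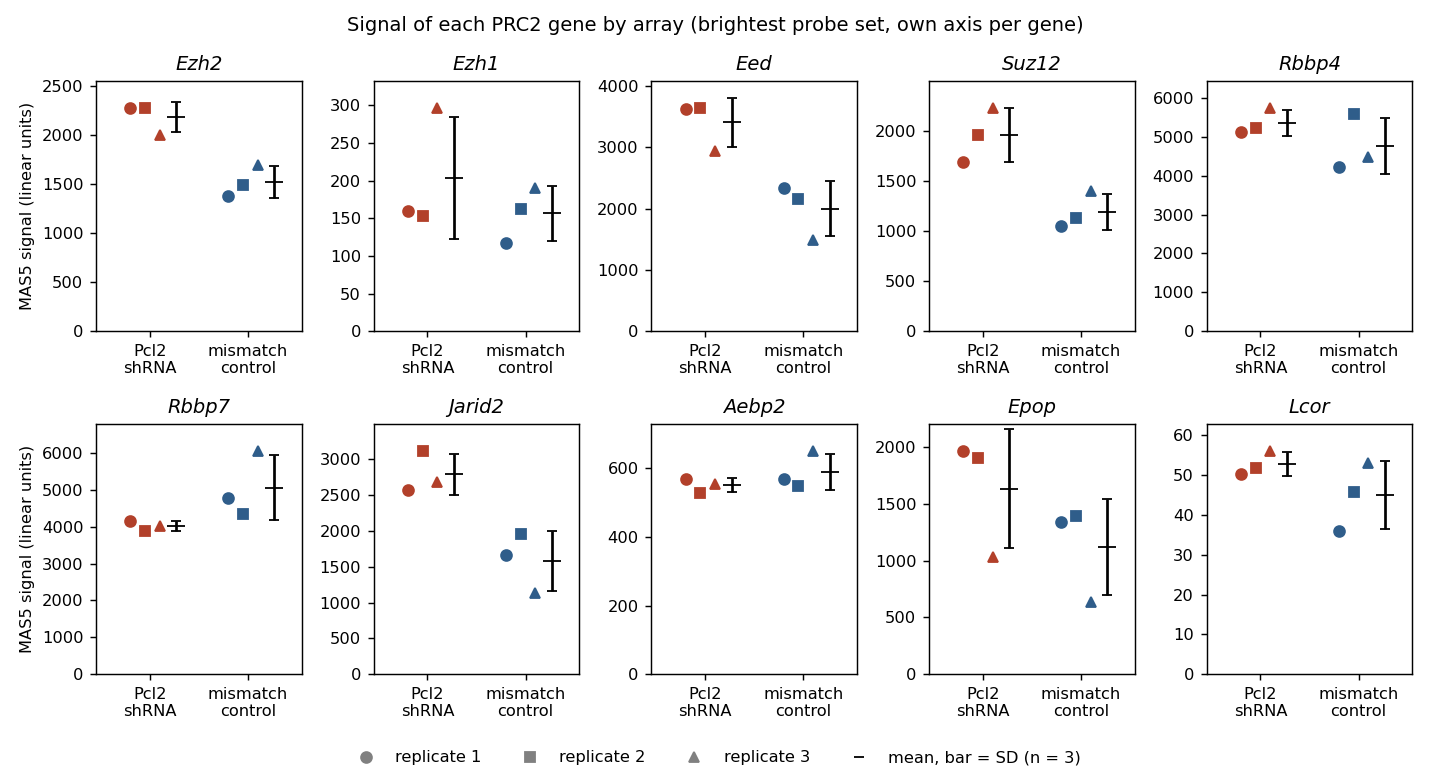
MAS5 signal (linear units) of the brightest probe set of each PRC2 gene on the 3 Pcl2 shRNA and the 3 mismatch control arrays, each gene on its own axis from 0. Marker shapes give the replicate number, and the bar beside each group is its mean with the SD (n = 3). The groups do not overlap for Ezh2, Eed, Suz12 and Jarid2, where the Pcl2 shRNA arrays lie above, or for Rbbp7, where they lie below.

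The promoters of the 4 genes that rose are shown because these genes were higher together, as 300 bases each from 250 before to 50 after an annotated start (RefSeq, GRCm38.p6), 5′ to 3′ along the gene. Of the 10 genes, 9 matched this table, Epop being the exception. Capitals mark matches on either strand to 5 motifs. The E2F site was searched as TTTCCCGC. It was also searched as the variant TTTGGCGC. The CCAAT box was searched as those 5 letters. The GC box was searched as GGGCGG. The YY1 site was searched as AAGATGGC. A match is a description of letters and not of binding. The windows are chr6:47594981-47595280 on the minus strand for Ezh2, chr7:89980927-89981226 on the minus strand for Eed, chr11:79992856-79993155 on the plus strand for Suz12, and chr13:44730524-44730823 on the plus strand and chr13:44731021-44731320 on the plus strand for the 2 starts of Jarid2.
Ezh2: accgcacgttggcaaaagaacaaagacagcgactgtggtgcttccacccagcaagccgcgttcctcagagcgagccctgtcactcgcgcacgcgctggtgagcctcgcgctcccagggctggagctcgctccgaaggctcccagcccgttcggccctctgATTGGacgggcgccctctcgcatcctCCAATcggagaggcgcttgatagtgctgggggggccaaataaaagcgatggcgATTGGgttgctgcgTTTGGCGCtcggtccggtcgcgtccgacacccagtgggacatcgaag
Eed: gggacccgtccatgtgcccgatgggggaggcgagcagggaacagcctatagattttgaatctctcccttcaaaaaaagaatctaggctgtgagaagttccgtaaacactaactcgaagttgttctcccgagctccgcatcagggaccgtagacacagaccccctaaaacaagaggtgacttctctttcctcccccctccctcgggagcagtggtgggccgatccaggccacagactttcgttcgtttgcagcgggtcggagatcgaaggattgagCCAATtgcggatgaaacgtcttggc
Suz12: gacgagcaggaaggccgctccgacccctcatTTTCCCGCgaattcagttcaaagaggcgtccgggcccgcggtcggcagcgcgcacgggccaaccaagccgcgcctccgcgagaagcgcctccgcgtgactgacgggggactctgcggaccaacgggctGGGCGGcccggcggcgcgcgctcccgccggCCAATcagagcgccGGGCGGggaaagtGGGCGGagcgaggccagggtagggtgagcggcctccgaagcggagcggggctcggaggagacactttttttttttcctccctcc
Jarid2 (first start): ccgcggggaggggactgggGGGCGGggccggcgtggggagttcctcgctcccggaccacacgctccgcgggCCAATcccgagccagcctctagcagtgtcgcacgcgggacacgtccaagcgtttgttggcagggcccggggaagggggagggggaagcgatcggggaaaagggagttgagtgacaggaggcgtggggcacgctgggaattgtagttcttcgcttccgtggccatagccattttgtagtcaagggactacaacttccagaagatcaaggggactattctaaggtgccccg
Jarid2 (second start): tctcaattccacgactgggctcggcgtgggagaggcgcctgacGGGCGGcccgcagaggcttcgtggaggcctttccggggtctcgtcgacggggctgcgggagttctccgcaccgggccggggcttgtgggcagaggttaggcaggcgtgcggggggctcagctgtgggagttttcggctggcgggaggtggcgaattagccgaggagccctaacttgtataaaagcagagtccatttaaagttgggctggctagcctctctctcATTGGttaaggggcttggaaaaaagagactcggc

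A CCAAT match was present in all 5 windows of the 4 genes, as in 37.4% of the 32851 promoter windows of the table. Their positions differed. Counted from the start, the first base lay at -90, -64 and -11 in Ezh2 and at -61 in Suz12. It lay at -179 and 17 in the first and second Jarid2 windows and at 26 in Eed. A CCAAT match was also present in windows of Rbbp4, Rbbp7 and Aebp2, which did not pass, and thus in 8 of the 12 windows of the 9 genes. TTTCCCGC was found only in Suz12 among the 12 windows of the 9 genes, and TTTGGCGC only in Ezh2, against 1.07% and 0.514% of all windows. GGGCGG was present in Suz12 and in both Jarid2 windows and in 35.7% of all windows, but not in those of Ezh2 and Eed. GGGCGG too was found in 8 of the 12 windows, with matches in Rbbp4, Rbbp7, Aebp2 and Lcor among them. AAGATGGC was found in Lcor and in none of the 4 genes that rose. The windows of Ezh1 and of the first Aebp2 start held none of the 5 motifs.

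Ezh2, the main methyltransferase of the complex in dividing cells, has a single probe set here. Its signal was 2275, 2281 and 2005 in the Pcl2 shRNA cells, against 1379, 1493 and 1699 in the mismatch control cells. Each Pcl2 shRNA array lay above each mismatch control array. The means were 2187 ± 157 in Pcl2 shRNA cells and 1524 ± 162 in mismatch control cells (SD, n = 3 each), and Ezh2 rose by log2 0.52 (SE 0.15, adjusted p = 0.0433). This was the closest of the 4 calls to the threshold. Leaving out any one of the arrays other than mismatch control replicate 3 ended the call (adjusted p = 0.0623 to 0.179, log2 0.45 to 0.58), and so did median centring (0.0671), testing with no signal filter (0.0612) and a fit with no intensity trend (0.092). The same probe set had adjusted p = 0.0535 over all probe sets, and 0.0276 there with the replicate number as a block.

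Ezh1, the paralogue that can replace EZH2 in the complex and has weaker methyltransferase activity, gave values that overlapped between the groups. Its brightest probe set read 160.3, 154 and 297 in the Pcl2 shRNA cells, against 117, 162 and 190.2 in the mismatch control cells. Pcl2 shRNA replicate 3 stood above the other 5 arrays, and without it the log2 fold change was 0.029 in place of 0.33. With all arrays Ezh1 gave log2 0.33 (95% interval -0.29 to 0.94, adjusted p = 0.519). A further Ezh1 probe set, 1418290_a_at, was also highest in Pcl2 shRNA replicate 3 and gave log2 0.51 (SE 0.25, adjusted p = 0.248). The remaining pair of Ezh1 probe sets lay at or below background, a signal of 20.3, on all 6 arrays and were not tested.

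The log2 ratio of Ezh2 to Ezh1 within an array was 0.20 higher in the Pcl2 shRNA cells (exact two-sided permutation p = 0.8, where 3 against 3 arrays allow no p below 0.1). Without 1 array this difference ranged from 0.0022 to 0.55, and under quantile normalization it was 0.063.

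Eed, which binds methylated H3K27 and stimulates the enzyme, gave 3629.8, 3641 and 2943 in the Pcl2 shRNA cells, against 2340.5, 2158 and 1485 in the mismatch control cells. The lowest Pcl2 shRNA array still lay above the highest mismatch control array. The means were 3405 ± 399.9 in Pcl2 shRNA cells and 1995 ± 450.3 in mismatch control cells, and Eed rose by log2 0.79 (SE 0.19, adjusted p = 0.0224). The call was lost without Pcl2 shRNA replicate 1 (adjusted p = 0.0832), Pcl2 shRNA replicate 2 (0.101) or mismatch control replicate 3 (0.0586), with log2 values of 0.74, 0.74 and 0.59. A fit with no intensity trend also ended it (0.0509). Its dim probe set 1453830_at stayed at or below background on all 6 arrays.

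Suz12, the scaffold on which the accessory proteins assemble, had the most probe sets. The brightest, 1427253_s_at, read 1685, 1959 and 2226 in the Pcl2 shRNA cells, against 1045, 1126 and 1395 in the mismatch control cells. The groups did not overlap, and Suz12 rose by log2 0.72 (SE 0.17, adjusted p = 0.0196). The call was lost without Pcl2 shRNA replicate 2 (adjusted p = 0.0831), Pcl2 shRNA replicate 3 (0.0725) or mismatch control replicate 1 (0.0698).

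The 6 Suz12 probe sets did not all behave alike. Across probe sets 3 of them rose: 1427253_s_at, 1420021_s_at with log2 0.66 (SE 0.17, adjusted p = 0.0385) and 1452364_at with log2 0.93 (SE 0.23, adjusted p = 0.0322). A further one, 1420022_s_at, had groups that did not overlap but did not pass (log2 0.79, SE 0.28, adjusted p = 0.111), and neither did 1449661_at (log2 0.59, SE 0.31, adjusted p = 0.28). The remaining one, 1420020_at, ran the other way with 65.8 ± 9.39 in Pcl2 shRNA cells and 77.6 ± 9.32 in mismatch control cells, log2 -0.22 (SE 0.21, adjusted p = 0.575). It was designed from the same expressed sequence as 1420021_s_at and 1420022_s_at.

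The Suz12 probe sets also differed in which arrays were high within a group. The 3 that passed were lowest in replicate 1 of both groups. In contrast, 1449661_at was highest in replicate 1 of both groups, with 415, 239.8 and 206 in the Pcl2 shRNA cells, against 269, 135 and 161 in the mismatch control cells. The same array order was seen for 1420022_s_at, with 245, 150.4 and 135 in the Pcl2 shRNA cells, against 135, 71.0 and 92.1 in the mismatch control cells. With the replicate number as a block both of these probe sets passed (adjusted p = 0.0231 and 0.0106).

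**Figure D2:**
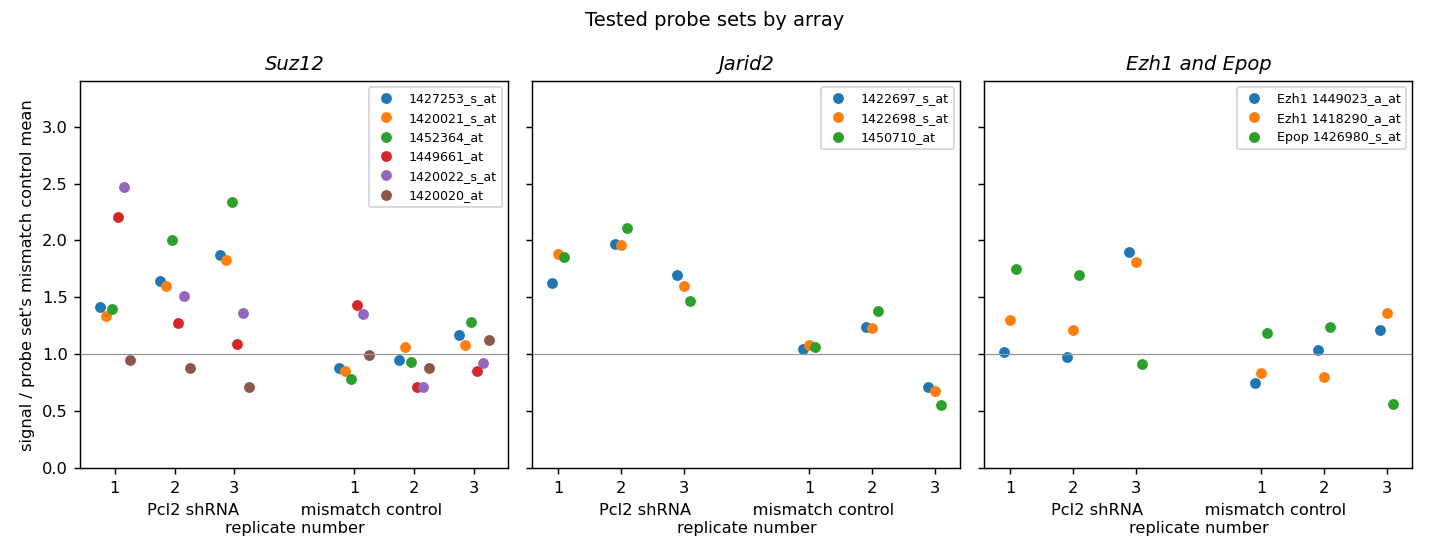
Signal of each tested probe set of Suz12, Jarid2, Ezh1 and Epop on each array, divided by that probe set's own mean over the 3 mismatch control arrays (vertical axis, no unit); the horizontal axis gives the replicate number in the Pcl2 shRNA and mismatch control groups. The 3 Suz12 probe sets that passed are lowest in replicate 1 of both groups, while 1449661_at and 1420022_s_at are highest there.

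The histone-binding subunits Rbbp4 and Rbbp7 are shared with the NuRD, Sin3 and CAF-1 complexes, so that their transcripts do not report on PRC2 alone. Rbbp4 gave 5117, 5228 and 5743 in the Pcl2 shRNA cells, against 4209, 5577 and 4487 in the mismatch control cells, with overlapping groups. None of its 4 probe sets passed, and the log2 fold changes were 0.091 to 0.51. The brightest gave log2 0.18 (95% interval -0.16 to 0.52, adjusted p = 0.52). Rbbp7 gave 4147, 3884 and 4011 in the Pcl2 shRNA cells, against 4785, 4339.8 and 6044 in the mismatch control cells. All 3 Pcl2 shRNA arrays lay below the mismatch control arrays, but Rbbp7 did not pass, at log2 -0.32 (95% interval -0.67 to 0.031, adjusted p = 0.236). Its other probe set, 1415775_at, also had a negative value, log2 -0.36 (SE 0.16, adjusted p = 0.207), and passed under quantile normalization only (log2 -0.49, adjusted p = 0.0259).

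The log2 ratio of Rbbp4 to Rbbp7 within an array was 0.50 higher in the Pcl2 shRNA cells (exact two-sided permutation p = 0.2), with a range of 0.33 to 0.72 without 1 array. The brightest probe sets of both genes carry the suffix of sets whose probes also match other transcripts, so cross-hybridisation cannot be told apart from these levels. Rbbp7 1415775_at carries no such suffix. The brightest probe sets of Suz12, Jarid2, Epop and Lcor carry the suffix of sets that match several transcripts.

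Jarid2, a Jumonji-family protein without demethylase activity that recruits PRC2 to its sites, had 3 probe sets, all designed from the same transcript record. The brightest, 1422697_s_at, read 2571, 3109 and 2684 in the Pcl2 shRNA cells, against 1657, 1953 and 1129 in the mismatch control cells. Jarid2 rose by log2 0.85 (SE 0.20, adjusted p = 0.0207), the largest of the 10 log2 fold changes. Another, 1422698_s_at, rose by log2 0.90 (SE 0.22, adjusted p = 0.028), and 1450710_at did not pass (log2 0.93, SE 0.30, adjusted p = 0.078) but did with the replicate number as a block (adjusted p = 0.00462). In all 3 the groups did not overlap. Mismatch control replicate 3 was the lowest array in each, and without it the brightest probe set gave log2 0.63. The call was lost without Pcl2 shRNA replicate 2 (adjusted p = 0.0976). It was also lost where probe sets that match several transcripts were left out, since 1450710_at then stood for the gene (adjusted p = 0.0633).

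Aebp2, a zinc finger protein that accompanies JARID2 in the complex, did not pass. Its brightest probe set read 568, 527 and 552 in the Pcl2 shRNA cells, against 567, 548 and 649 in the mismatch control cells. The groups overlapped, and Aebp2 gave log2 -0.095 (95% interval -0.42 to 0.23, adjusted p = 0.75). The probe set 1435070_at gave a log2 fold change of -0.040, and 1437743_at one of 0.20. A further one, 1455616_at, had higher values in every Pcl2 shRNA array, with 107, 87.5 and 58.7 in the Pcl2 shRNA cells, against 39.4, 52.5 and 43.7 in the mismatch control cells. It did not pass (log2 0.78, SE 0.25, adjusted p = 0.0788), but passed without Pcl2 shRNA replicate 3 (adjusted p = 0.0383), with array weights (0.0334) and with the replicate number as a block (adjusted p = 0.0401). The mean of the Aebp2 probe sets had the opposite sign to the brightest one (log2 0.21). The remaining probe set, 1421021_at, was at or below background on all 6 arrays.

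Epop, which in mouse stem cells links PRC2 to the Elongin BC dimer, spread widely within each group. Its single probe set read 1962, 1901 and 1028 in the Pcl2 shRNA cells, against 1336, 1393 and 636 in the mismatch control cells. Replicate 3 was the lowest array of both groups, and the groups overlapped. Epop gave log2 0.56 (95% interval -0.16 to 1.28, adjusted p = 0.317). The differences between arrays of the same number were 0.55, 0.45 and 0.69 on the log2 scale, and with that number as a block Epop rose (adjusted p = 0.00798). The block raised the count of member genes to 5 of 10 higher and 0 lower (9.97% of all genes passed as higher with it and 13.8% as lower) and that of member probe sets to 12 of 28 higher and 0 lower, where 8.2% of all probe sets passed as higher and 11.4% as lower. Here too a gene with several probe sets counts more than once. Without 1 array at a time, the Epop value ranged from log2 0.20 without mismatch control replicate 3 to 0.86 without Pcl2 shRNA replicate 3.

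Lcor encodes a nuclear receptor corepressor and, from a longer transcript, the PRC2 partner PALI1. Which of these transcripts each probe set reads was not examined. Lcor had 4 probe sets, and the brightest read 50.2, 51.8 and 56.0 in the Pcl2 shRNA cells, against 35.9, 45.8 and 53.0 in the mismatch control cells. Its groups overlapped, with log2 0.21 (95% interval -0.28 to 0.71, adjusted p = 0.61). The others gave log2 fold changes of 0.29 to 0.46, and none passed.

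**Figure D3:**
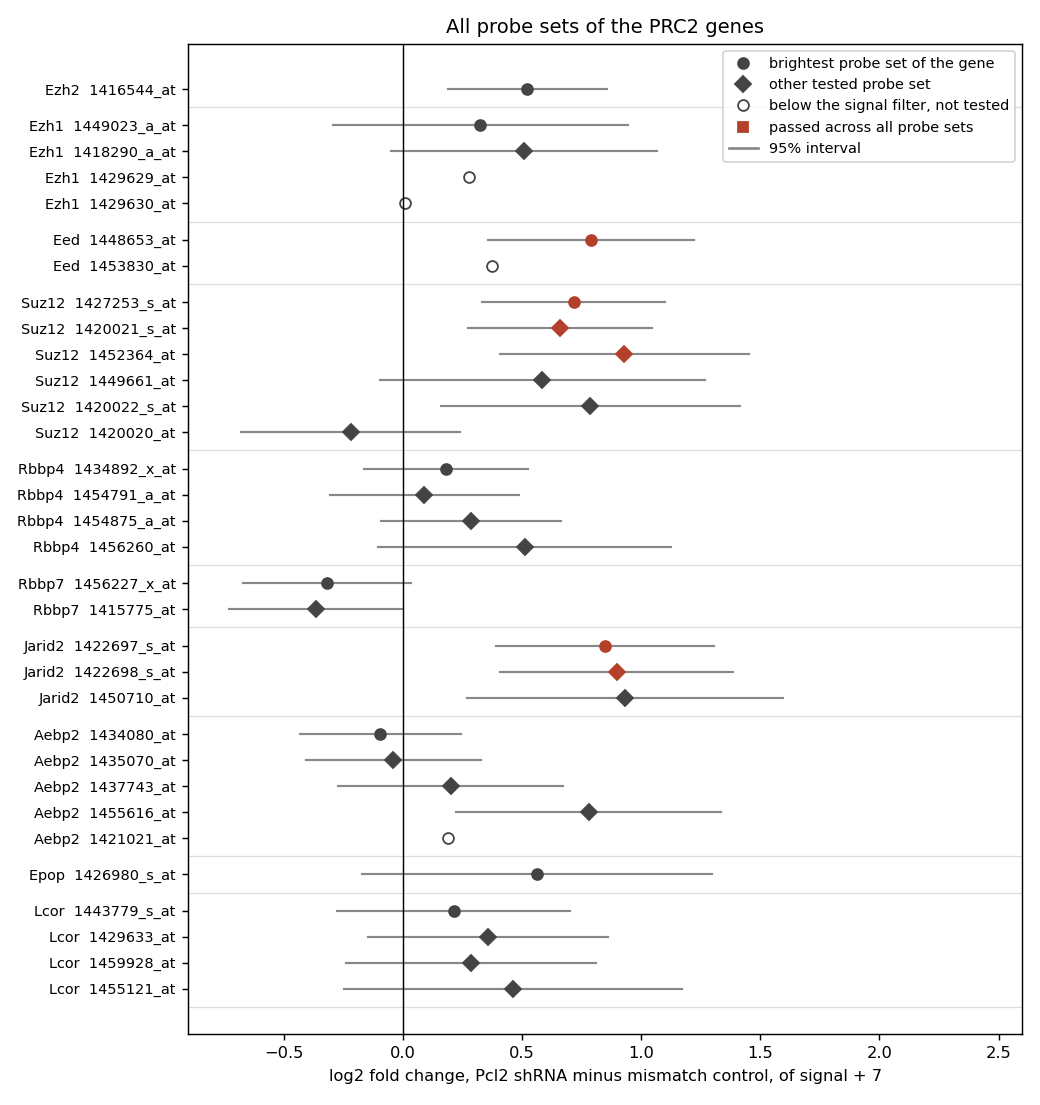
Log2 fold change of signal + 7, Pcl2 shRNA minus mismatch control, of each of the 32 PRC2 probe sets (horizontal axis), with the 95% interval of the fit across all probe sets for the 28 that were tested. Circles mark the brightest probe set of a gene, diamonds the others and open circles those below the signal filter; the 6 in red, of Eed, Suz12 and Jarid2, passed across all probe sets.

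Groups that did not overlap were counted across the members. By the brightest probe set, all Pcl2 shRNA arrays lay above all mismatch control arrays in 4 of 10 genes and below them in 1, where 14.5% and 16.7% of all genes tested did so. Over probe sets the counts were 10 above and 1 below of 28, where 14.3% and 15.2% of all probe sets tested did so. Suz12 and Jarid2 each count more than once among the 10. Taken by replicate number, 6 of the 10 genes had a higher value in the Pcl2 shRNA array of each number, Rbbp7 had a lower one in each, and 3 had both signs. Of all genes tested, 27.3% were higher and 27% lower in each number.

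**Figure D4:**
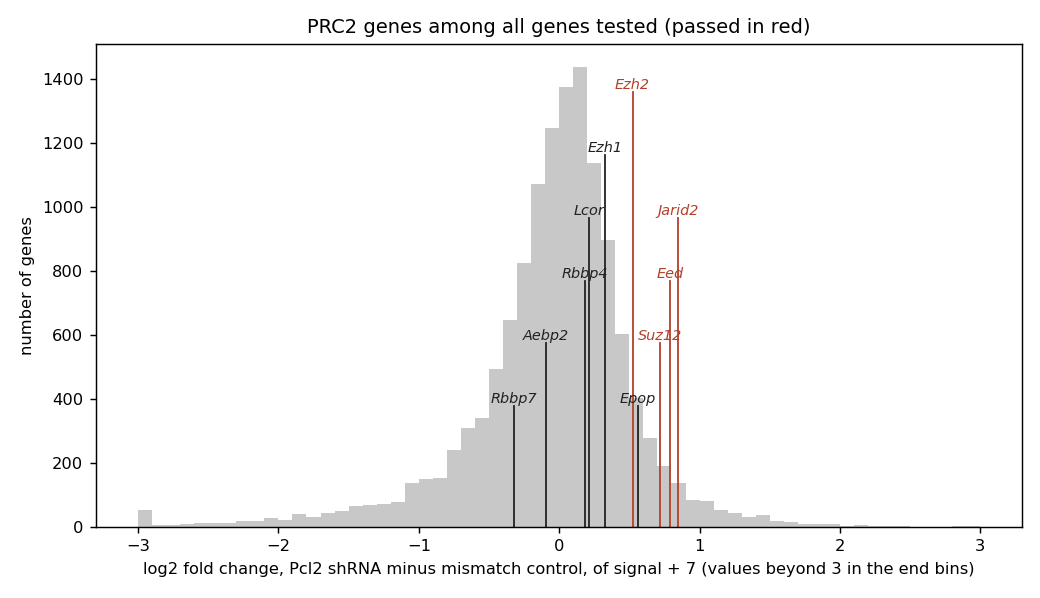
Distribution of the log2 fold changes of signal + 7, Pcl2 shRNA minus mismatch control, of 13095 genes (horizontal axis, bins of 0.1; vertical axis, number of genes), with the 10 PRC2 genes marked by lines whose heights carry no value. The 4 in red passed, and 8 of the 10 lie above 0.

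Every one of the 4 calls depended on Pcl2 shRNA replicate 2. Without that array 0 of the 10 genes passed and the log2 fold changes of Ezh2, Eed, Suz12 and Jarid2 were 0.49, 0.74, 0.71 and 0.77, while 263 genes over the whole array (2.01%) passed as higher. The same 4 genes still had an unadjusted limma p below 0.05 there, as did 7.98% of all genes on the higher side. The count was 2 of 10 without Pcl2 shRNA replicate 1 (3.02% of all genes passed as higher in that fit), Pcl2 shRNA replicate 3 (3.05%) or mismatch control replicate 1 (3.12%). It was 3 of 10 without mismatch control replicate 2 (4.34% of all genes) or mismatch control replicate 3 (3.76%).

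**Figure D5:**
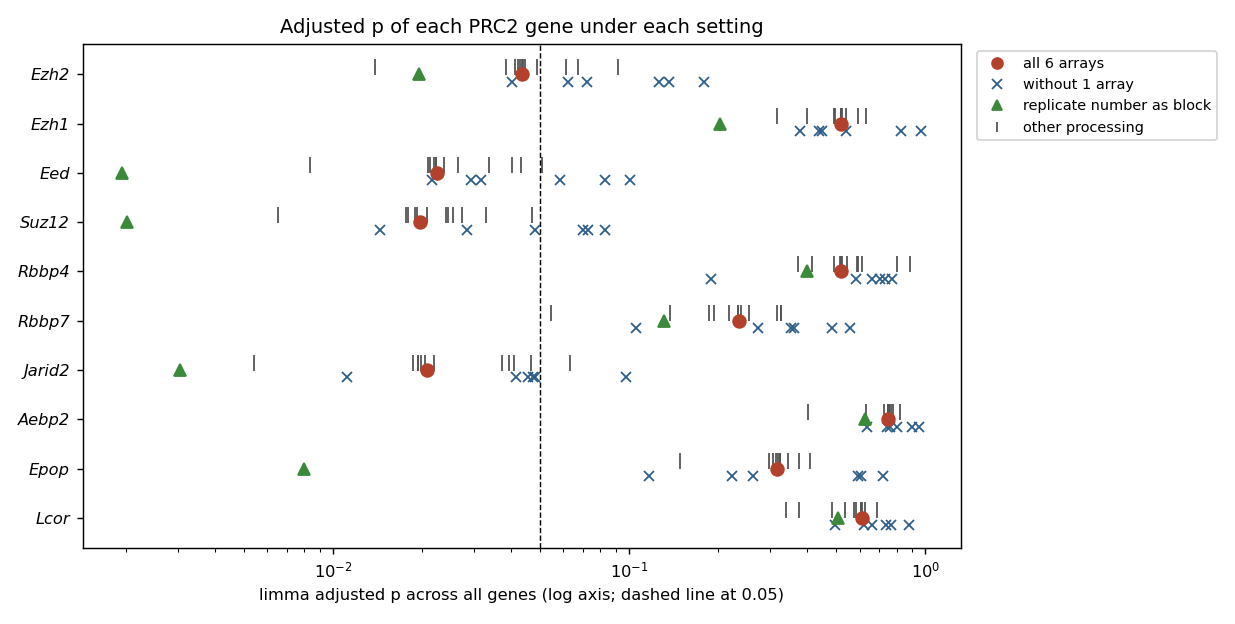
Adjusted p of limma over all genes (horizontal log axis, dashed line at 0.05) for each PRC2 gene under each setting: all 6 arrays, without 1 array, with the replicate number as a block, and with other processing. Eed, Suz12, Jarid2 and Ezh2 lie left of the line with all arrays and on both sides of it without 1 array, and Epop lies left of it with the block.

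Other genes of the Polycomb and Rb pathways were read from lists and mostly did not pass. Of the E2F and Rb family 13 of 13 were tested: E2f2, an activating E2F, rose (79.8 ± 5.04 in Pcl2 shRNA cells and 44.7 ± 7.15 in mismatch control cells, log2 0.75, SE 0.21, adjusted p = 0.0407), E2f6, a repressive E2F found in a PRC1 complex, fell (206 ± 36.9 in Pcl2 shRNA cells and 381 ± 65.3 in mismatch control cells, log2 -0.87, SE 0.20, adjusted p = 0.0181), and 11 did not pass. Leaving out any array but mismatch control replicate 3 ended the call of E2f2 (adjusted p up to 0.149), as did testing with no signal filter (0.0745), and the call of E2f6 was lost without Pcl2 shRNA replicate 3 (0.0621) or mismatch control replicate 1 (0.0696). With the replicate block 4 rose (E2f1, E2f2, Rbl1 and Rbl2) and 2 fell (E2f6 and E2f7). In that fit 9.97% of all genes passed as higher and 13.8% as lower. The names other than E2f2 and E2f6 were chosen after their values were seen.

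Of 27 measured subunits of the NuRD, Sin3, CAF-1, NURF and DREAM complexes, which share RBBP4 or RBBP7, Arid4a of the Sin3 complex rose (143 ± 10.2 in Pcl2 shRNA cells and 90.0 ± 6.53 in mismatch control cells, log2 0.63, SE 0.18, adjusted p = 0.0477) and 26 did not pass. Its call was lost in every fit without 1 array (adjusted p up to 0.185), with no signal filter (0.0697) and with a floor at background (0.057). Of the H3K27 demethylases Kdm6a, Kdm6b and Uty, 0 of 3 passed limma, and Uty alone had an unadjusted p below 0.05, as lower. Uty read 36.7, 26.7 and 49.4 in the Pcl2 shRNA cells, against 204.5, 50.7 and 56.0 in the mismatch control cells, where replicate 1 stood far above the rest. Of 7 tested partners of PRC2 or of H3K27 and H3K9 methylation, 0 passed limma and 1 had an unadjusted p below 0.05 (Cdyl, higher). Of 10 tested genes of the Polycomb deubiquitinase complex and its partners, 0 passed limma and 2 had an unadjusted p below 0.05 (Foxk1 and Foxk2, both lower). These 4 names were chosen after their values were seen. Over all genes tested, 11.3% were higher and 14.8% lower at that unadjusted p, so such small counts do not set these lists apart. An unadjusted p below 0.05 was also reached by 6 of the 13 E2F and Rb genes and by 6 of the 27 subunits.

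The genes most like the core in their profile over the 6 arrays were sought by the mean absolute difference between centred log2 values and the averaged profile of Ezh2, Eed and Suz12. The 5 closest of all genes tested, members left out, were Mrps31 (0.046 on the log2 scale over 6 arrays), Commd5 (0.048), Zkscan5 (0.049), Chek2 (0.050) and Ints4 (0.053). Ezh2, Suz12 and Eed make up the profile, which lowers their distances in advance. They were still not its closest followers: Ezh2 stood at 0.091 (rank 65 of 13095 genes), Suz12 at 0.16 (rank 541) and Eed at 0.19 (rank 960). Of the other members, Jarid2 stood at 0.18 (rank 874), Lcor at 0.24 (2101) and Rbbp4 at 0.25 (2424). Further away were Aebp2 at 0.39 (rank 7133), Ezh1 at 0.39 (7211), Epop at 0.43 (8414) and Rbbp7 at 0.50 (9722). The profile itself was 0.29 to 0.40 in the Pcl2 shRNA arrays and -0.36 to -0.32 in the mismatch control arrays. A gene with the same value on every array would stand at the mean size of the profile over the 6 arrays, its sign left out. That size was 0.40 in Pcl2 shRNA replicate 2 and 0.29 to 0.36 in the other arrays. Aebp2, Ezh1, Epop and Rbbp7 all stood further away than such a gene.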

How the data were processed

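The authors deposited linear intensity values, 1 for each probe set of a mouse expression array, made with MAS5 per the submitters' processing notes. The trimmed mean (2% off each end) was 150.001 on all arrays, and that scaling was kept. No detection calls were used. Probe sets naming 1 gene were taken (34945 of 45101; 932 named several, 9160 none, 64 were controls), with symbols updated through the RefSeq table of GRCm38.p6, and none named a PRC2 gene beside others. Values became log2(signal + 7), 7 being the 20th percentile, so fold changes of dim genes are understated. Tested were 23186 probe sets with a mean at or above the 40th percentile (a signal of 20.2), and the brightest stood for each of 13095 genes. limma 3.58.1 (R 4.3.3; lmFit, eBayes with trend) gave two-sided, Benjamini-Hochberg adjusted p-values. Background, 20.3, was the highest signal of 27 bacterial control probe sets without a spike. The number of arrays limits the precision.

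Deviations from the group means correlated at 0.26 to 0.36 between same-numbered samples and at -0.33 to -0.03 between others. With 3 arrays centred in each group, positive same-number values push the others towards negative ones, so this contrast is partly built in. No label gives a pairing by number. The reported limma fits and ratio tests treated the samples as unpaired, and the replicate block is given as an alternative only. On simulated data for the gene comparison (13095 genes), 42 of 100 genes with a log2 change of 1 were recovered, as were 82 of 100 with one of 2, with 7 false calls of 131. For probe sets these were 24 of 100 and 79 of 100, with 5 false calls of 108. No other genes or probe sets were changed and the noise was independent between arrays. In the data 584 genes passed as higher and 1068 as lower, so the recovered shares do not carry over to them. Figures were drawn with matplotlib 3.10.9. The members, lists and tests were chosen with earlier results of these data known. Named were all members, Mtf2, list genes that passed, and the 5 nearest profiles. The marker and pathway lists were written from general knowledge. Alternatives are given at the end.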

Additional observations from a re-analysis of the deposited data

How the results depend on the processing

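Under every alternative run, Ezh2, Eed, Suz12 and Jarid2 kept positive log2 fold changes, within 0.45 to 0.60, 0.59 to 0.92, 0.58 to 0.93 and 0.63 to 1.02. These alternatives were other scaling (quantile, median), other pseudocounts (1 and 21), other signal filters (none, or the 60th percentile), averaged probe sets, cross-hybridising probe sets left out, other variance models (no trend, robust, array weights, replicate block), a floor at background, and 1 array left out at a time. Their calls were less steady. Without the eBayes trend 2 member genes and 0 member probe sets passed as higher, of 498 genes and 693 probe sets over the array. Without a signal filter 1 member probe set passed as higher, of 626 over the array, and without cross-hybridising probe sets, which removes some of the members' probe sets, 2 did, of 746. The reported fit had 836 of 23186 probe sets as higher, with 28 of the members tested. Without the filter all 34945 single-gene probe sets were tested, 32 of them of the members. Fewer than 23186 were tested without cross-hybridising ones, so these counts are not over the same probe sets. Quantile normalization added 1 lower probe set, of Rbbp7, with 1581 lower over the array. With the replicate block, 12 member probe sets of 1902 over the array, 1305 genes higher and 1808 genes lower passed, against 584 and 1068 without it, and with array weights 885 genes were higher. Without 1 array, 0 to 3 member genes and 0 to 4 member probe sets were higher, with 263 to 568 genes higher and 689 to 1038 lower over the array. Over all probe sets, 295 to 1902 were higher and 913 to 2647 lower across the alternatives. The sign turned for Aebp2 with the mean of its probe sets (0.21), for its probe set 1435070_at under quantile normalization (0.043) and without mismatch control replicate 3 (0.022, the range without 1 array being -0.091 to 0.022), and for Rbbp4 1454791_a_at without mismatch control replicate 1 (-0.042, range -0.042 to 0.27). The block also brought past the threshold Cdyl, Chaf1b, Gatad2b, Nanog and Ogt as higher and Chd3, Mta1, Foxk1, Foxk2, Col1a1 and Col3a1 as lower, names chosen after their values were seen. Where no cause is named here, the cause was not tested. The within-array ratios kept their sign in each setting run for them.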
